A study of Homo sapiens with 30 samples.

Results

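The Krüppel-like factors (KLF) are zinc finger transcription factors, and the values here are those of 10 of them, KLF2, KLF3, KLF4, KLF5, KLF6, KLF7, KLF10, KLF11, KLF13 and KLF16. They were chosen by gene name, and 16 probes of 58201 on the array carry one of these names. The cells were of the BEAS-2B line, immortalized cells from human bronchial epithelium, grown at an air-liquid interface. They received 10 mg of whole birch pollen dispersed with air, or a mock exposure in which a mesh kept the pollen off the cells, and RNA was taken at 5 times, at 10 min, at 55 min, at 2h25 min, at 6h50 min and at 24 h. With 3 single-colour Agilent arrays for each exposure and time, there were 10 groups. BEAS-2B is 1 line. Per the study's methods, exposures were repeated independently on separate days, each run with its own mock control, while the labels do not say which arrays shared a run.

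All 7 epithelial markers (KRT5, KRT7, KRT8, KRT18, KRT19, EPCAM and CDH1) were well above background on all 30 arrays. The mesenchymal markers VIM and CDH2 were as well. Of the fibroblast markers COL1A1, DCN and PDGFRB passed on all 30 arrays and COL1A2 on 27. Of the immune markers PTPRC passed on 30 and CD3E on 17, and of the endothelial markers CDH5 on 30, VWF on 28 and PECAM1 on 0. Passing does not give the level. On a log2 scale where 0 is the array's 75th percentile, epithelial markers lay between -0.9 and 7.48 and mesenchymal ones between -0.07 and 7.09. Fibroblast markers lay between -6.48 and 1, immune ones between -9.23 and -3.62 and endothelial ones between -9.58 and -3.3. The share of probes that passed on an array ran from 44.7% to 59.3%, and the 75th percentile of intensity from 578 to 2111. In such bulk samples fewer cells and less RNA per cell cannot be told apart. The 30 arrays lay on 5 slides. All arrays at 6h50 min lay on 1 slide that held no other time, so that changes to and from 6h50 min cannot be told apart from a difference between slides. Mock and pollen arrays at 10 min, 6h50 min and 24 h shared a slide within each time. The pollen replicate 1 array at 55 min was of another array design and alone on its slide.

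KLF proteins bind GC-rich and CACCC sequences through zinc fingers at their C-terminus, and differ in the part that recruits partners. KLF2, KLF4, KLF5, KLF6 and KLF7 are known mainly as activators, KLF3 represses through the CTBP proteins, and KLF10, KLF11, KLF13 and KLF16 recruit the SIN3A repressor complex. Several KLF genes are immediate early genes, switched on by growth factors, shear stress or TGF-beta without new protein synthesis. In airway epithelium KLF5 and KLF4 are known for roles in growth and differentiation.

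Sequences upstream of the start of transcription were available for 8 of the 10 genes, with 13 annotated starts, from RefSeq (GRCh38.p14). Those of KLF2, KLF4 and KLF6 are shown because the levels of these genes moved most from 10 to 55 min under pollen. Each is the 250 bases before the start, on chr19:16324576-16324825 (plus strand) for KLF2, chr9:107489770-107490019 (minus strand) for KLF4 and chr10:3785210-3785459 (minus strand) for KLF6. Capitals mark GC boxes (GGGCGG), the E-box CACGTG and, in KLF2, a MEF2 site, each on either strand.
KLF2: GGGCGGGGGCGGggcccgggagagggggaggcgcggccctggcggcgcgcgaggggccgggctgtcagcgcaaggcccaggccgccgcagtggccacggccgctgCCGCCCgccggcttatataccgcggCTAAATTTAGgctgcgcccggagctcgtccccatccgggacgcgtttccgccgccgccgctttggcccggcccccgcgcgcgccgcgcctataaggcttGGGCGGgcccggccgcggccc
KLF4: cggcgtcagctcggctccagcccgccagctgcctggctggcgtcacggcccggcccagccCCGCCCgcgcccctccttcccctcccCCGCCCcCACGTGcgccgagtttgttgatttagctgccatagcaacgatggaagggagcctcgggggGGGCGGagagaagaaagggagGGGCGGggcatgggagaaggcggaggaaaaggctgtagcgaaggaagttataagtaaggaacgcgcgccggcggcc
KLF6: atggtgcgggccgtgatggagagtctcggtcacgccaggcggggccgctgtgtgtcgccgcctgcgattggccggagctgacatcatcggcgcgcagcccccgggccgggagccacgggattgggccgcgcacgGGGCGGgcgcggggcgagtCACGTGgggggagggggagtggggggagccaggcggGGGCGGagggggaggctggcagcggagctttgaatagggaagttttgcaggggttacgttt

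A GC box stood in 42.6% of all 35116 promoters over the same 250 bases, an E-box CACGTG in 6.34% and a MEF2 site in 2.8%. The KLF2 window held 4 GC boxes and a MEF2 site that begins at -120. The KLF4 window held 4 GC boxes and an E-box at -157, and the KLF6 window held 2 GC boxes and an E-box at -97. KLF11 had an E-box at -182 of its first annotated start and the cyclic AMP element TGACGTCA, present in 1.65% of promoters, at -176 of the second. The other motifs searched on both strands were CACCC, in 54.7% of promoters, TATAAA, in 10.7%, and the core of the serum response element, in 1.16%, which matched 1 start of KLF7. The AP-1 letters TGANTCA, present in 6.57% of promoters, were in none of the 13 windows. A match is a description of the letters, not evidence of binding.

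**Figure D1:**
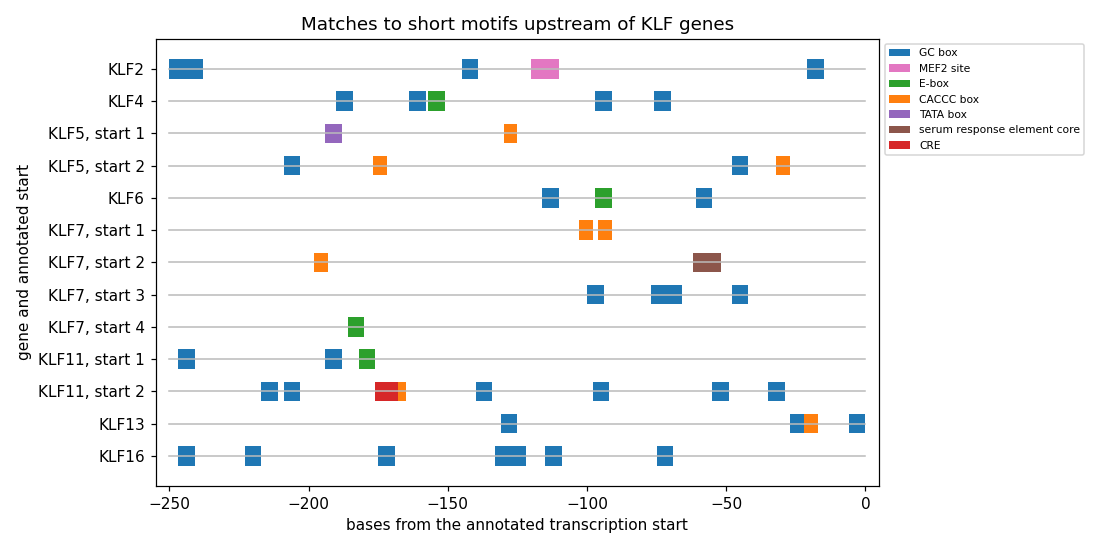
Matches to short motifs, both strands, in the 250 bases before each annotated start of 8 KLF genes. The x axis gives bases from the start and each coloured bar covers a match; an E-box lies upstream of KLF4, KLF6, KLF7 and KLF11, and the MEF2 site only upstream of KLF2 among these windows.

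Each gene is represented by its brightest tested probe, which was well above background on all 30 arrays for each of the 10 genes. On hg19 these probes lie at chr19:16438246-16438305 for KLF2, chr9:110248049-110248108 for KLF4, chr13:73650979-73651038 for KLF5, chr10:3821387-3821446 for KLF6 and chr2:10194646-10194705 for KLF11, and an annotation of that build was not used here. Levels are log2 intensity minus the 75th percentile of the array, so that 0 is a probe as bright as that percentile, and levels of different probes were not compared. The group means of KLF4 spanned 1.43 on this log2 scale, those of KLF11 1.34, KLF2 1.26, KLF10 1.2 and KLF6 1.08. The other members spanned less, from 0.26 for KLF7 to 0.81 for KLF5.

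**Figure D2:**
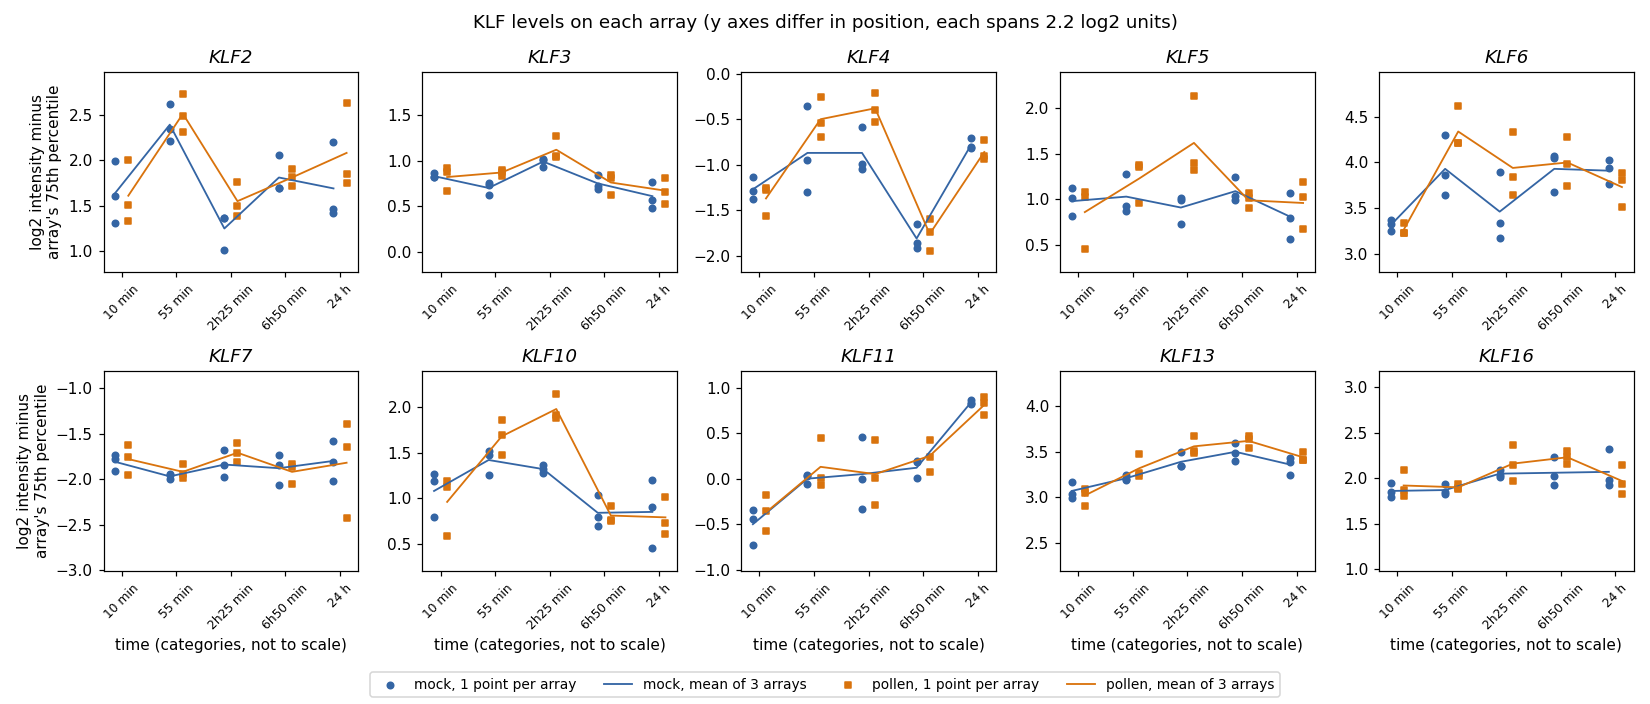
Levels of the 10 KLF genes on each of the 30 arrays (y axis, log2 intensity minus the array's 75th percentile; x axis, time as categories). Points are arrays and lines join the means of 3; KLF10 under pollen at 2h25 min lay between 1.88 and 2.15, above the mock arrays, which lay between 1.28 and 1.36.

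The first comparison was pollen against mock at each time. Calls required 1.1-fold or more and a limma p under 0.05 after Benjamini-Hochberg adjustment over 32100 tested probes. None of the 10 genes was called at any of the 5 times. The same rule called 0, 1, 11, 14 and 1 probes in all from 10 min to 24 h, which is 0% at 10 min, 0.00312% at 55 min, 0.0343% at 2h25 min, 0.0436% at 6h50 min and 0.00312% at 24 h. At an unadjusted p under 0.05, the number of KLF genes was 0 at 10 min, 1 at 55 min, 4 at 2h25 min, 0 at 6h50 min and 0 at 24 h. The shares of all tested probes at that level were 1.83%, 5.08%, 2.98%, 7.44% and 3.61%.

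KLF10, also known as TIEG1 and induced early by TGF-beta, separated most clearly at 2h25 min. The pollen arrays measured 2.15, 1.91 and 1.88 and the mock arrays 1.36, 1.28 and 1.32. The groups did not overlap, and the mean difference was 0.66 (SE 0.18, 95% interval 0.29 to 1.03, 1.58-fold), with a limma adjusted p of 0.55. Same-numbered arrays differed by 0.79, 0.63 and 0.56. At 2h25 min same-numbered arrays deviated together, and with the replicate number as a block the limma adjusted p of KLF10 was 0.00957, a call shared by 44 probes or 0.137% of those tested. The pairing was chosen from these same arrays. Replicates 1 and 2 of both exposures lay on 1 slide and replicate 3 of both on another. Whether the slide accounts for the shared deviation was not tested.

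KLF5, an activator of growth genes in epithelia, differed at 2h25 min as well. The pollen arrays measured 2.14, 1.4 and 1.32 and the mock arrays 0.99, 1.01 and 0.73. All pollen arrays were higher, and replicate 1 alone reached 2.14. The mean difference was 0.71 (SE 0.2, 95% interval 0.29 to 1.13), with a limma adjusted p of 0.699, and 0.253 with the replicate block.

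KLF4, known for barrier formation in epithelia, measured -0.21, -0.4 and -0.53 under pollen at 2h25 min and -0.58, -0.99 and -1.05 under mock. The groups did not overlap, and the difference was 0.5 (SE 0.18, limma adjusted p = 1). KLF6, an injury-induced activator, measured 4.34, 3.84 and 3.64 under pollen and 3.89, 3.17 and 3.34 under mock at that time. Here the groups overlapped, the difference was 0.48 (SE 0.2, limma adjusted p = 1), and every pair was higher under pollen.

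In all, 5 KLF genes (KLF2, KLF3, KLF4, KLF5 and KLF10) had every pollen array above every mock array at 2h25 min, against 2.85% of all tested probes. The change was above 0 for 9 of 10 members, against 41.6% of all probes. The median difference over the members was 0.23, and -0.03 over all tested probes. These genes are not independent of each other, and they were chosen with earlier results of these data known. The count is a description, not a test against all probes. KLF11 differed by 0 at 2h25 min, with a 95% interval of -0.37 to 0.37.

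**Figure D3:**
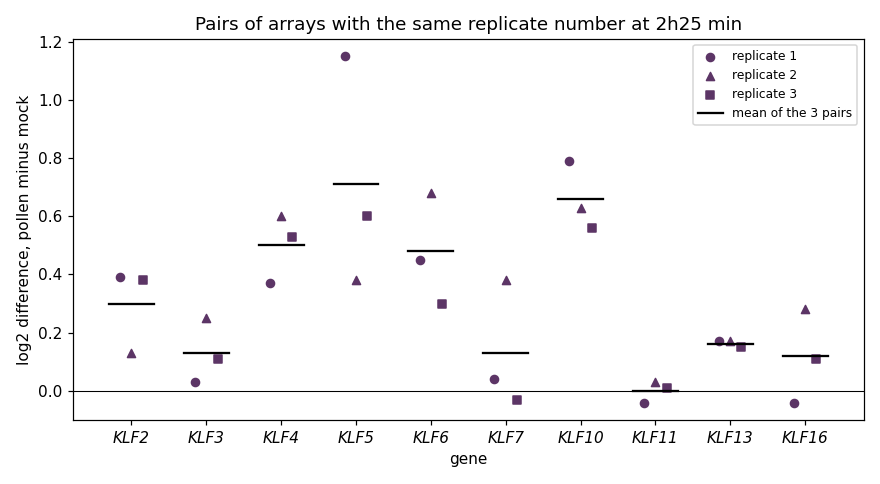
Differences between the pollen and mock arrays of the same replicate number at 2h25 min (y axis, log2; x axis, gene; symbols, replicate; bars, mean). The values of KLF10 lay between 0.56 and 0.79.

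At 55 min the change was above 0 in 10 of 10 members, against 48.5% of all probes, with a median of 0.15. This direction depended on the scaling. With the 75th percentile over each array's own probes, 10 of 10 members were below 0 (-0.38 to -0.01), where the median of all probes moved to -0.37, and 8 of 10 were below 0 in the table of log2 values that the authors deposited. KLF3 alone had every pollen array above every mock array at 55 min, against 4.73% of all probes. KLF6 differed by 0.41 (SE 0.2, 95% interval -0.01 to 0.83) and KLF4 by 0.37 (SE 0.18, 95% interval 0 to 0.74), with a limma adjusted p of 0.92 for each. Within the slide that held 2 arrays of each group, the difference was 0.33 for KLF6 and 0.25 for KLF4 at 55 min. At 2h25 min the values within that slide were 0.71 for KLF10, 0.77 for KLF5, 0.56 for KLF6 and 0.48 for KLF4, with a limma adjusted p of 1 for each.

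At 10 min, 6h50 min and 24 h the differences were close to 0 for most members. At 10 min they lay between -0.13 and 0.14, with 3 of 10 above 0 (51.9% of all probes). At 6h50 min they lay between -0.1 and 0.17, with 6 above 0 (50.2%), and at 24 h between -0.18 and 0.39, with 4 above 0 (49.1%). The value of 0.39 at 24 h was that of KLF2 (SE 0.24, 95% interval -0.1 to 0.87, limma adjusted p = 1), with all 3 pairs higher under pollen.

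**Figure D4:**
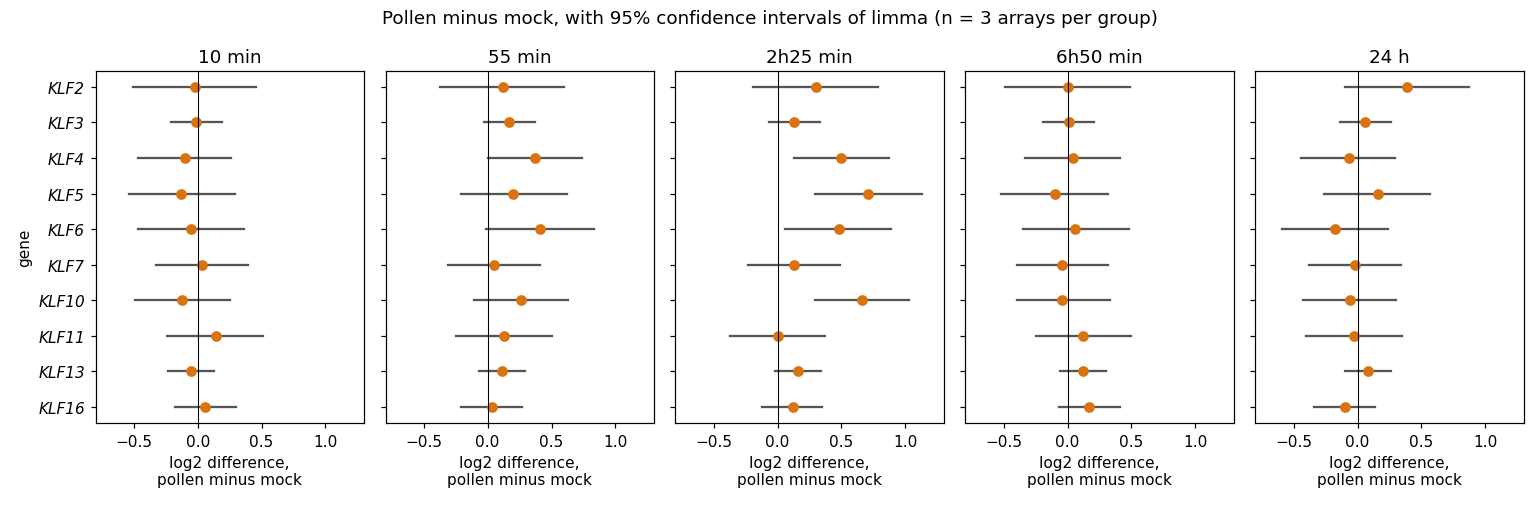
Pollen minus mock for the 10 KLF genes at each of the 5 times (x axis, log2 difference; points, limma estimates; lines, 95% intervals; 3 arrays per group). The intervals of KLF4, KLF5, KLF6 and KLF10 at 2h25 min lie above 0 before adjustment for the number of probes.

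The change of the pollen effect between times was tested for all 10 pairs of times, and 0 KLF genes were called, with a smallest limma adjusted p of 0.769. Of all tests over these 10 comparisons, 0.00156% were called. At an unadjusted p under 0.05 there were 8 values of members, and 3.88% of all tests. From 2h25 min to 6h50 min the pollen effect on KLF10 changed by -0.7 (SE 0.25) and that on KLF5 by -0.81 (SE 0.29, limma adjusted p = 0.769).

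The second comparison was of neighbouring times within each exposure. From 10 to 55 min KLF4 and KLF6 rose under pollen, 2 of 10 members, while 0.841% of all tested probes were called and 0.421% rose. KLF6 went from 3.34, 3.22 and 3.22 to 4.21, 4.21 and 4.62, a rise of 1.08 (SE 0.2, 2.12-fold, limma adjusted p = 0.0119). KLF4 went from -1.26, -1.56 and -1.28 to -0.69, -0.54 and -0.26, a rise of 0.87 (SE 0.18, 1.83-fold, limma adjusted p = 0.0194). Neither gene's arrays overlapped between these times. In all, 6 of 10 members lay higher without overlap, against 6.03% of all probes. The call of KLF4 was lost without pollen replicate 1 or 2 at 10 min (0.92 and 0.77, limma adjusted p = 0.0602 and 0.0975). With slide as a fixed block neither was called, with rises of 0.71 for KLF6 and 0.31 for KLF4 and a limma adjusted p of 1 for each. That fit links the slide of 10 min to the others through 1 array only, mock replicate 1 at 55 min. Pollen replicate 1 at 55 min, alone on its slide, adds nothing to it. With slide as a random block the rises were 0.94 for KLF6 and 0.68 for KLF4 (limma adjusted p = 0.248 and 0.39), and with only the groups compared in the fit 1.08 and 0.87 (0.162 and 0.206), so that 0 members were called in either.

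Under mock 0 members were called over the same step, where 0.187% of all tested probes were, and 4 members (KLF2, KLF4, KLF6 and KLF11) had an unadjusted limma p under 0.05. KLF6 differed by 0.62 (SE 0.2, limma adjusted p = 0.254) and KLF4 by 0.4 (SE 0.18, limma adjusted p = 0.43) under mock. The difference of the step between the exposures, tested as the change of the pollen effect, was not called for any member.

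The other probes of KLF6 did not follow its main probe throughout. A second probe, above background on all 30 arrays and dimmer, gave 0.56 over the same step under pollen (limma adjusted p = 0.286). A probe above background on 4 arrays gave -1.79 (limma adjusted p = 0.0795).

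KLF2, an activator best known from endothelial cells under flow, was highest at 55 min in both exposures. Mock arrays measured 1.31, 1.99 and 1.61 at 10 min, 2.34, 2.21 and 2.62 at 55 min and 1.37, 1.37 and 1.01 at 2h25 min. Pollen arrays measured 1.33, 2 and 1.51, then 2.31, 2.49 and 2.73, then 1.76, 1.5 and 1.39. The arrays at 55 min lay above those of both neighbouring times in each exposure. From 10 to 55 min 12.5% of all probes rose without overlap under mock and 6.03% under pollen. From 55 min to 2h25 min 5.12% and 4.42% fell without overlap. The difference of KLF2 from 55 min to 2h25 min was -1.14 under mock (SE 0.24, limma adjusted p = 0.165) and -0.96 under pollen (SE 0.24, limma adjusted p = 0.117), neither of which was called. With array weights the limma adjusted p was 0.00934 under mock and 0.00715 under pollen, and with normexp and quantile normalization 0.0367 and 0.0314. Under the other 17 of 19 alternatives KLF2 was not called in either exposure. Over all 19 its change lay between -1.23 and -1.02 under mock and between -1.08 and -0.48 under pollen. The array weights at 55 min were 0.75, 6.32 and 0.94 under mock and 0.12, 3.34 and 0.98 under pollen. The weighted means there thus rest mostly on replicate 2. Of all tested probes, 0.0156% were called over this step under mock and 0.202% under pollen.

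From 2h25 min to 6h50 min KLF4 and KLF10 fell under mock, 2 of 10 members, while 32.4% of all tested probes were called and 22.6% fell. Under pollen KLF3, KLF4, KLF5 and KLF10 fell, 4 of 10 members, while 31% of all probes were called and 19.9% fell. The median of all tested probes moved by -0.15 under mock and -0.11 under pollen over this step. KLF4 reached its lowest level of the series at 6h50 min, with mock arrays of -1.65, -1.86 and -1.91 and pollen arrays of -1.6, -1.74 and -1.95. Its decrease was -0.93 under mock (SE 0.18, limma adjusted p = 0.000589) and -1.39 under pollen (SE 0.18, limma adjusted p = 1.29e-05). KLF10 changed by -0.48 under mock (SE 0.18, limma adjusted p = 0.0427) and by -1.17 under pollen (SE 0.18, limma adjusted p = 6.97e-05). KLF10 was no longer called under mock when mock replicate 1, 2 or 3 at 2h25 min, or replicate 2 or 3 at 6h50 min, was left out (changes from -0.5 to -0.4). In all, its call under mock was lost in 12 of 17 alternatives. They include normexp with quantile normalization (-0.29, limma adjusted p = 0.198) and the deposited table (-0.26, limma adjusted p = 0.451). The call of KLF4 under mock was lost in 2 of 17, the percentile over own probes and the deposited table. KLF5 changed by -0.63 under pollen (SE 0.2, limma adjusted p = 0.022), and by -0.37 without the pollen replicate 1 array at 2h25 min (limma adjusted p = 0.164). Without pollen replicate 2 at 6h50 min KLF5 changed by -0.58 (limma adjusted p = 0.0753). KLF3 changed by -0.36 (SE 0.1, limma adjusted p = 0.00704). Its call was lost with the percentile over own probes and the deposited table (limma adjusted p = 0.411 and 0.176). It was lost as well with slide as a random block and only the groups compared (limma adjusted p = 0.0618 and 0.0841). KLF5 under pollen was not called in any of these settings either.

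From 6h50 min to 24 h KLF4 and KLF11 rose in both exposures, 2 of 10 members. Of all tested probes 40.5% were called under mock and 36.2% under pollen, and 24.7% and 21.8% rose. KLF4 rose by 1.03 under mock (SE 0.18, limma adjusted p = 0.000124) and by 0.91 under pollen (SE 0.18, limma adjusted p = 0.000485). KLF11 rose by 0.71 under mock (SE 0.18, limma adjusted p = 0.00352) and by 0.56 under pollen (SE 0.18, limma adjusted p = 0.0183). The rise of KLF11 under pollen was 0.48 without pollen replicate 3 at 6h50 min and 0.52 without pollen replicate 3 at 24 h, and was then not called (limma adjusted p = 0.0755 and 0.0588).

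**Figure D5:**
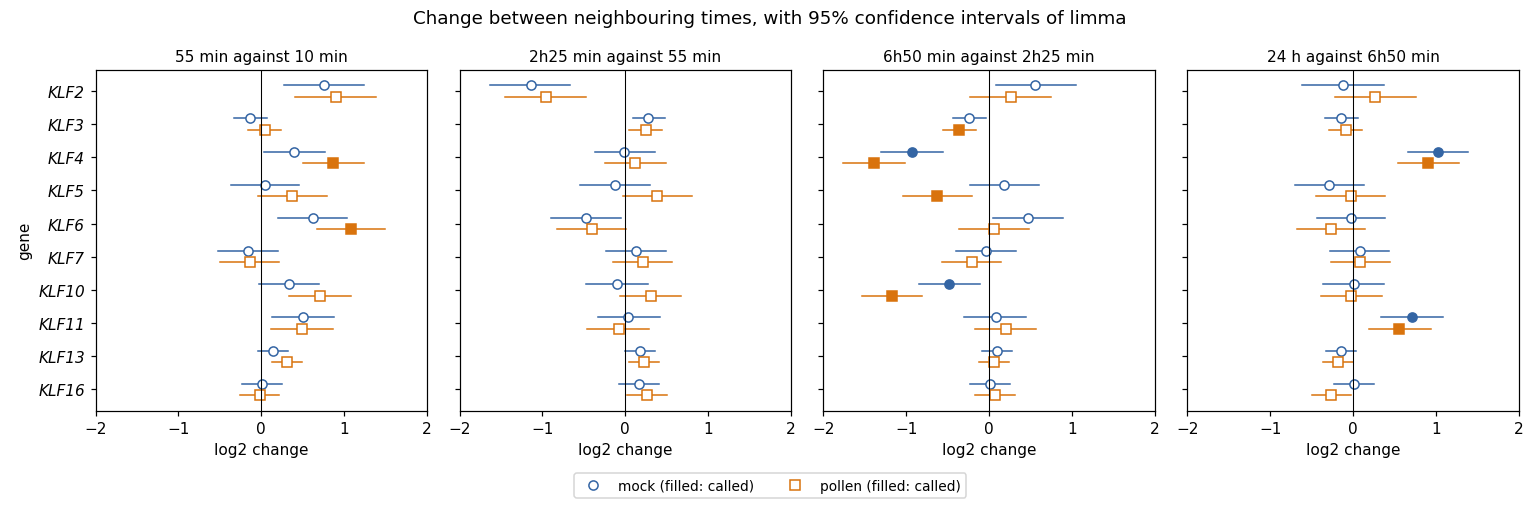
Changes between neighbouring times under mock and under pollen (x axis, log2 change; points, limma estimates, filled where called; lines, 95% intervals). KLF4 moves down to 6h50 min and up to 24 h in both exposures, with changes between -1.39 and 1.03.

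KLF11, also known as TIEG2, was the member with the largest change over the whole day. Mock arrays measured -0.34, -0.44 and -0.73 at 10 min and 0.86, 0.83 and 0.82 at 24 h, and pollen arrays -0.18, -0.35 and -0.57 and then 0.83, 0.7 and 0.9. No array at 24 h overlapped those at 10 min, while 24.3% of all tested probes under mock and 21.7% under pollen lay higher without overlap. Against 10 min KLF11 rose by 1.34 under mock (SE 0.18, 2.53-fold, limma adjusted p = 5.85e-06) and by 1.18 under pollen (SE 0.18, 2.26-fold, limma adjusted p = 3.97e-05). These times lie on different slides. With slide as a fixed block the rise was 1.45 under mock (limma adjusted p = 0.0272) and 1.29 under pollen (limma adjusted p = 0.0676). Mock replicate 1 at 55 min was the only array of another time on the slide of 10 min, and these 2 values rest on it. Against 2h25 min, replicate 3 of which shares a slide with 24 h, KLF11 rose by 0.79 under mock and 0.76 under pollen (limma adjusted p = 0.00201 and 0.00349), and by 0.83 and 0.8 with slide as a fixed block (limma adjusted p = 0.00984 and 0.0163). With only the groups compared in the fit the rise under pollen was not called (0.76, limma adjusted p = 0.0582).

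In all, 4 members rose from 10 min to 24 h under mock (KLF4, KLF6, KLF11 and KLF13) and 3 under pollen (KLF4, KLF11 and KLF13), while 37.5% and 35.3% of all tested probes were called and 17.5% and 15.8% rose. The call of KLF4 was lost without mock replicate 1 or 3 at 10 min or any mock replicate at 24 h (0.43 to 0.5), and under pollen without replicate 2 at 10 min or 1 at 24 h (0.42 and 0.45). Under mock KLF6 was lost without replicate 2 at 10 min or 1 or 2 at 24 h (0.54 to 0.58), and KLF13 without replicate 2 at 10 min or 1 at 24 h (0.25). With slide as a fixed block KLF4 changed by 0.08 under mock and 0.11 under pollen, KLF13 by 0.43 and 0.57, and KLF6 under mock by 0.47, none of them called. These values too rest on mock replicate 1 at 55 min as the link between slides. KLF13, which recruits repressors and is known from lymphocytes, rose by 0.29 under mock (SE 0.09, limma adjusted p = 0.0113) and by 0.42 under pollen (SE 0.09, limma adjusted p = 0.000724). Another tested probe of KLF13, above background on 15 arrays, gave -0.76 and -0.6, neither called. From 2h25 min to 24 h, KLF3 fell in both exposures, by -0.38 under mock and -0.45 under pollen (limma adjusted p = 0.00453 and 0.00147), while KLF10 and KLF5 fell under pollen by -1.2 and -0.66 (limma adjusted p = 4.76e-05 and 0.0208). With slide as a fixed block KLF3 under mock changed by -0.31 and KLF5 under pollen by -0.42, neither called (limma adjusted p = 0.0756 and 0.285). KLF3 in both exposures and KLF5 under pollen were also not called with the percentile over own probes, the deposited table or only the groups compared. KLF5 was lost as well with array weights and with slide as a random block. The call of KLF5 was also lost without pollen replicate 1 at 2h25 min (-0.4, limma adjusted p = 0.164) and without pollen replicate 1 at 24 h (-0.51, limma adjusted p = 0.128). Of all tested probes, 27.4% under mock and 23% under pollen were called from 2h25 min to 24 h.

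KLF7 and KLF16 were the flattest members. Group means of KLF7 ran from -1.97 to -1.71, and its pollen arrays at 24 h measured -1.39, -2.43 and -1.65. Group means of KLF16 ran from 1.86 to 2.23. Neither was called between exposures or between neighbouring times.

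Genes around the KLF proteins were read from lists. Of the other KLF and SP family genes 14 of 16 were tested, of partners and regulators 18 of 19, and of genes known to answer to KLF proteins in some cells 11 of 12. None was called for pollen against mock at any time. At 2h25 min 1 family gene, 1 partner and 2 responsive genes had an unadjusted limma p under 0.05, as did 2.98% of all tested probes. There the smallest p belonged to THBD, thrombomodulin, a KLF2 target in endothelium, which differed by 0.65 (SE 0.18, limma adjusted p = 0.55), with a group mean of 1.52 ± 0.29 under pollen and 0.87 ± 0.21 under mock (SD, n = 3). KLF9, a glucocorticoid-responsive family member, differed by 0.29 (SE 0.12) and MEF2D, a MEF2 factor upstream of KLF2, by 0.26 (SE 0.11), each with a limma adjusted p of 1. The medians of the 3 lists at 2h25 min were 0.08 for the family, 0.06 for partners and 0.12 for responsive genes, against 0.23 for the members.

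Over 10 to 55 min under pollen, KLF9 rose by 0.52 (limma adjusted p = 0.0338), as did the coactivator CREBBP by 0.4 (0.0303) and MEF2D by 0.47 (0.0497), and under mock 0 genes of the lists were called. No gene of the lists was called for the change of the pollen effect over this step. Under mock KLF9 averaged 3.1 at 10 min and 3.41 at 55 min. The pollen arrays at 10 min and 55 min lay on different slides. From 2h25 min to 6h50 min, SIN3B, a scaffold of the SIN3 complex, rose by 1 under mock and 1.21 under pollen (limma adjusted p = 1.8e-06 and 2.49e-07). Over the same step SMAD7, an inhibitor of TGF-beta signalling, fell by -0.84 and -1.09 (limma adjusted p = 9.74e-05 and 6.6e-06), and KLF9 by -0.45 and -0.67 (limma adjusted p = 0.0063 and 0.00027). Of the lists, 5 family genes rose and 2 fell under mock, 6 partners rose and 1 fell, and 1 responsive gene fell. Under pollen the counts were 4 and 3, 5 and 3, and 0 and 2. Of all tested probes 9.9% rose and 22.6% fell under mock, and 11.1% rose and 19.9% fell under pollen. CDKN1A, the p21 cell cycle inhibitor, rose from 10 min to 24 h by 1.99 under mock (limma adjusted p = 3.56e-06) and 1.67 under pollen (4.34e-05), and KRT19 fell by -1.96 and -1.37 (1.78e-05 and 0.000953). These times lie on different slides. Between them 17.5% of all tested probes rose and 20% fell under mock, and 15.8% rose and 19.5% fell under pollen.

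Among 13539 symbols whose probes were well above background on every array, the profiles most like a member were taken over the 10 group means. RHOB had a Pearson r of 0.938 with KLF2, DUSP10 0.943 with KLF4, TIPARP 0.923 with KLF6, NCOA7 0.992 with KLF10 and LAMB2 0.982 with KLF11. The second in each case was TMEM170B at 0.87, SMAD7 at 0.936, SUZ12 at 0.919, ERRFI1 at 0.986 and SUSD1 at 0.981. These are descriptions over 10 means that share slides and exposures by time.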

How the data were processed

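A total of 30 single-colour Agilent arrays of BEAS-2B cells were used, 3 for each exposure and time. The authors deposited spot intensities from Feature Extraction 11.0.1.1, with background removed and spatial trends levelled on each array and positions on hg19. They also deposited a table of log2 values, used here as an alternative. Of its columns, 24 were nearest to their own array and 6, at 24 h, to another array of their group. With R 4.3.3 and data.table, version 1.17.8, non-uniform and outlier spots were dropped, replicate spots were averaged, and log2 intensity minus the array's 75th percentile over the 33873 probes common to both array designs was fitted. The array of the other design has 42405 probes. Group means were fitted with limma 3.58.1 (20 residual and 2.35 prior degrees of freedom) over 32100 probes that were well above background throughout at least 1 group of 3 arrays. The design came from the methods, and p-values were Benjamini-Hochberg adjusted over all tested probes. The members and the lists of genes were chosen with earlier results of these data known. Named genes were all 10 members, genes of the lists that were called or up to 2 with the smallest p, and for members spanning at least 1 the 2 RefSeq symbols most like them. The markers CD68 and LYZ were not analysed here.

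Precision is limited by 3 arrays per group, and 0 probes were saturated. Same-numbered mock and pollen arrays were compared as deviations from their group means. These correlated between 0.3 and 0.35 at 10 min, 0.4 and 0.52 at 2h25 min and 0.22 and 0.49 at 24 h. Such arrays were therefore taken as pairs at these times. At 55 min (-0.12 to 0.35) and 6h50 min (0.05 to 0.12) the correlations gave no clear ground for pairs. The alternative with the replicate number as a block was nevertheless fitted at 55 min and 6h50 min as well. The fit was tested on simulated data of the 2h25 min comparison over 23889 probes, where it recovered 64% of 100 probes changed by 1 and 95% of 100 changed by 2 on the log2 scale, with 8 false calls. The simulated arrays held no deviation shared by slide or replicate number. The largest member difference at 2h25 min was 0.71, and recovery at that size was not simulated. Alternatives were other scalings, backgrounds and filters, array weights, slide or replicate number as a block, leaving out each array and, chosen after seeing the data, slide as a fixed block, values within a slide and 24 h against 10 min and 2h25 min. Figures were drawn with matplotlib from these values.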

Additional observations from a re-analysis of the deposited data

How the results depend on the processing

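For pollen against mock, 0 members were called at 10 min, 55 min, 6h50 min and 24 h under any alternative, and at 2h25 min 1 member was called, KLF10, with the replicate block only. KLF10 at 2h25 min lay between 0.58 and 0.71 over 19 alternatives, with limma adjusted p between 0.00957 and 1. With the replicate block, as a pairing, 0 members were called for the change of the pollen effect. This block was also fitted at 55 min and 6h50 min, where the correlations gave no clear ground for pairs. Counts of called members that moved by over 1.5 times are given here. With the 75th percentile over own probes they were 0 for mock at 6h50 min against 2h25 min, 0 for pollen at 55 min against 10 min, 2 for pollen at 6h50 min against 2h25 min, 1 for pollen at 24 h against 6h50 min, 1, 1 and 1 for mock at 24 h against 10 min and 2h25 min and pollen at 24 h against 10 min, and 2 for pollen at 24 h against 2h25 min. This scaling moved the median of all probes by -0.37 for pollen against mock at 55 min. The deposited table gave the same counts except 1 for pollen at 55 min against 10 min, and moved that median by -0.24. Normexp with quantile normalization gave 4 for pollen at 55 min against 10 min and 1 (KLF2) for 2h25 min against 55 min in each exposure. Array weights gave the same, and 3 for mock at 55 min against 10 min and 4 for mock at 24 h against 2h25 min. Array weights also gave 6 for mock at 24 h against 10 min, and 3 for mock at 6h50 min against 2h25 min, where KLF2 and KLF6 were added and KLF10 was lost. KLF13 was added for mock and KLF16 for pollen at 24 h against 6h50 min, and for pollen at 24 h against 2h25 min KLF2 was added and KLF5 lost. The largest weights were those of replicate 2, at 6.32 for mock at 55 min, 5.21 for mock at 24 h and 3.34 for pollen at 55 min. Without the filter on dim probes mock at 6h50 min against 2h25 min gave 1. Slide as a random block gave 1 for that step, 0 for pollen at 55 min against 10 min, 2 for pollen at 6h50 min against 2h25 min, 1 for pollen at 24 h against 6h50 min and 2 for mock at 24 h against 10 min. With only the groups compared, counts were 1 for mock at 6h50 min against 2h25 min, 0 for pollen at 55 min against 10 min, 2 for pollen at 6h50 min against 2h25 min, and 1 for mock and 1 for pollen at 24 h against 2h25 min. With slide as a fixed block they were 0 for pollen at 55 min against 10 min, 1 for mock and 0 for pollen at 24 h against 10 min. There mock replicate 1 at 55 min alone links the slide of 10 min to the others. The causes were not tested. Leaving out each array gave 1 to 4 for mock at 24 h against 10 min, 1 to 2 for pollen at 55 min against 10 min, 2 to 3 for pollen at 24 h against 10 min, 1 to 2 for mock at 6h50 min against 2h25 min, 2 to 3 for mock at 24 h against 2h25 min, 3 to 4 for pollen at 6h50 min and 3 to 4 at 24 h against 2h25 min, and 1 to 3 for pollen at 24 h against 6h50 min. Other probes ran the opposite way for KLF6, with -1.79 for pollen at 55 min against 10 min, -0.88 for mock and -1.6 for pollen at 24 h against 10 min, and for KLF13, with -1.25 for mock and -1.48 for pollen at 6h50 min against 2h25 min and -0.76 and -0.6 at 24 h against 10 min. Of these, the limma adjusted p was under 0.05 for -1.6 (0.0132), -1.25 (0.0463) and -1.48 (0.0204). These probes were well above background on 4 arrays for KLF6 and 15 for KLF13.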

Other observations

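KLF2 at 10 min was almost the same in the mock and pollen arrays of one replicate number and differed between numbers. Mock and pollen measured 1.31 and 1.33 in replicate 1, 1.99 and 2 in replicate 2, and 1.61 and 1.51 in replicate 3. The spread within a group was 0.34 (SD, n = 3) for mock, while the pairs differed by 0.02, 0.01 and -0.1. At 24 h replicate 3 was the highest array of KLF2 in both exposures, at 2.2 under mock and 2.63 under pollen, and the pairs differed by 0.39, 0.33 and 0.44.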
